A study of Mus musculus with 17 samples.

Results

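The WNT pathway genes measured here are 60 of the 18256 named genes in the table. Their symbols name WNT ligands (Wnt), Frizzled receptors (Fzd), the coreceptor Lrp5, the receptors Ror1 and Ror2 and secreted modulators (Dkk, Sfrp, Rspo, Wif1). The rest are the surface ubiquitin ligase Rnf43 and intracellular members (Axin, Apc, Ctnnb1, Dvl, Nkd, Porcn, Lef1 and the Tcf7 family). The 60 genes were chosen by symbol, with earlier results of these data known, and each had 1 probe. Lrp6, Tcf7 and Znrf3 were not analysed here. The series followed neural precursor cells, cultured from the hippocampus of adult mice, for 720 min after basic fibroblast growth factor (bFGF) and epidermal growth factor (EGF) were taken away to start differentiation. Total RNA was measured on 17 Illumina bead arrays, 1 at each time. All arrays come from the same kind of culture, untreated other than by this withdrawal, and 0 min is the proliferating culture with both factors present. No culture kept in the factors for a matching time was measured, so time in culture and withdrawal cannot be told apart, and the labels name no strain, exact age or number of animals.

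WNT proteins are secreted, lipid-modified ligands that bind Frizzled receptors together with the coreceptors Lrp5 and Lrp6. In canonical signalling this stops a destruction complex, built on Axin and Apc, from marking beta-catenin (Ctnnb1) for degradation, and beta-catenin then enters the nucleus and joins transcription factors of the Tcf7 and Lef1 family. Target genes of that step include negative feedback regulators such as Axin2, Nkd1, Rnf43 and Znrf3, while other ligands, Wnt5a among them, mostly act without beta-catenin. In the adult hippocampus WNT signals are known to influence both the proliferation of neural precursors and the formation of neurons.

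Values are log2 signals, so a difference of 1 is a doubling of measured signal. The 17 times were grouped into windows of 0 to 60 min (early, 5 arrays), 90 to 180 min (second, 4 arrays), 240 to 360 min (the third window, 3 arrays) and 420 to 720 min (late, 5 arrays). limma tested each of the 3 later windows against the early window over 19854 features, and a gene was called higher or lower at a Benjamini-Hochberg adjusted p under 0.05. A time course test asked whether a smooth curve over all times departed from a flat line. An alternative set, called the other windows below, took 0 to 45, 60 to 120, 150 to 240 and 480 to 720 min in their place. Neighbouring times stand in for replicates, so each p measures spread within 1 series of arrays and not between independent cultures. Errors of means are SDs across a window's arrays. Of the precursor markers 8 of 10 lay above the median probe (Pax6 and Msi1 did not), as did 1 of 7 neuronal markers, 6 of 8 oligodendrocyte lineage markers, 3 of 7 endothelial and mural markers and 0 of 5 microglial markers.

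WNT genes changed in both directions in these cells. In the late window 9 of the 60 were higher and 9 lower. The risers were led by Nkd1, Wnt7b and Wnt4, and the fallers by Wnt7a, Fzd10 and Fzd1. Against the background of all features, of which 14.8% were higher and 13.9% lower, the shares of called members were similar, and the median late change was 0.00 over the members and -0.00 over all features. In the third window 7 members were higher and 7 lower, where 8.14% of all features were higher and 8.76% lower. In the second window 4 were higher and 2 lower, against 2.61% and 2.90%. The time course test called 12 members upward and 9 downward, against 16.6% and 16.0% of all features. The late arrays did not overlap with the early arrays for 13 members (21.7%), against 21.3% of all features. Array signal comes from the whole culture, so fewer cells of a type and less RNA per cell cannot be told apart.

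**Figure D1:**
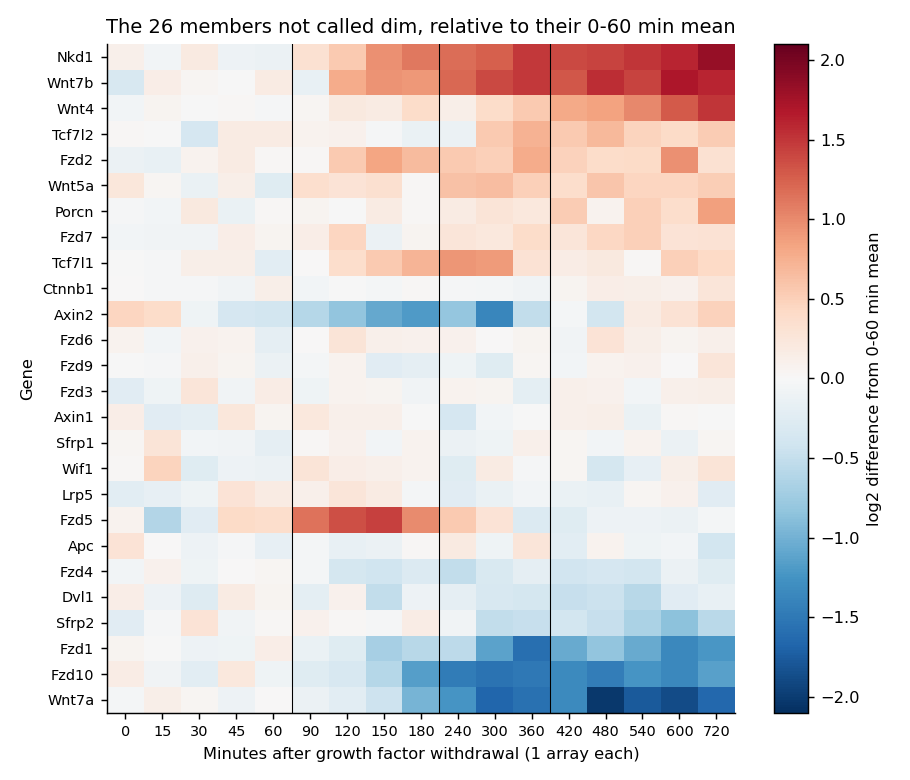
Heat map of the 26 members whose mean signal was at or above the median of all probes. Each column is 1 array, labelled in minutes, colour is the log2 difference from the gene's own mean over 0 to 60 min, rows are ordered by the late change, and black lines separate the 4 windows. Nkd1, Wnt7b and Wnt4 are red at the right, Wnt7a, Fzd10 and Fzd1 are blue there, and Fzd5 and Axin2 change in the middle columns and are back near 0 late.

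Brightness set how much could be read. Of the 60 members, 34 were dim, meaning that their mean signal lay under the median probe's (6.41), and 15 of the 19 WNT ligands were among them. The table gives no detection p, so whether a dim probe measured its transcript above background is not known. Of the 18 members called late, 14 were not dim, and the 4 dim ones were Wnt6, Nkd2, Rspo3 and Dkk3. The changes of these 4 are differences in measured signal. Over all features 14.8% were higher and 13.9% lower late. Shares among dim and other features apart are not given here, so the split of calls by brightness is not read as a result about the members. This split uses the mean over all 17 arrays. Wnt4, with an early mean of 6.21, lay above the median probe through its later arrays, and Nkd2, with an early mean of 6.46, fell below it through its later ones.

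Among the ligands, Wnt7a and Wnt7b moved in opposite directions. Both are close paralogues that activate the canonical pathway in neural and vascular tissue. The Wnt7a signal was 10.92, 11.09, 11.00, 10.85 and 10.97 at 0, 15, 30, 45 and 60 min. At 90 to 180 min it was 10.85, 10.75, 10.53 and 9.98, and at 240, 300 and 360 min 9.73, 9.30 and 9.40. It lay at 9.63, 8.95, 9.21, 9.09 and 9.31 at 420, 480, 540, 600 and 720 min. No later array overlapped with the 5 early ones, although the 90 min array lay just under the lowest of them. The late change was -1.73 (SE 0.13, adjusted p = 8.63e-12), a 3.32-fold lower signal, and the fitted curve reached the midpoint of its fall at 210 min. In the second window the change of -0.44 did not pass (adjusted p = 0.0679).

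Wnt7b started at 9.48 at 0 min and was 9.98 at 60 min. The 4 arrays from 90 to 180 min read 9.66, 10.59, 10.75 and 10.73. The first array above the early range was that at 120 min, and the fitted curve reached the midpoint of its rise at 150 min. From 240 to 360 min the signal was 11.01, 11.20 and 11.29, and the late arrays read 11.12, 11.36, 11.23, 11.50 and 11.41. All arrays of the third and late windows were above all early ones, while the 90 min array lay within the early range. The mean rose from 9.81 ± 0.20 (SD, n = 5 arrays) to 11.32 ± 0.15 (n = 5), a 2.85-fold higher signal (log2 change 1.51, SE 0.15, adjusted p = 8.33e-10). The second window change was 0.62 (adjusted p = 0.0104), and it missed the threshold at 0.51 without the 150 min array or at 0.52 without the 180 min array. With the other windows it was 0.31 and did not pass.

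**Figure D2:**
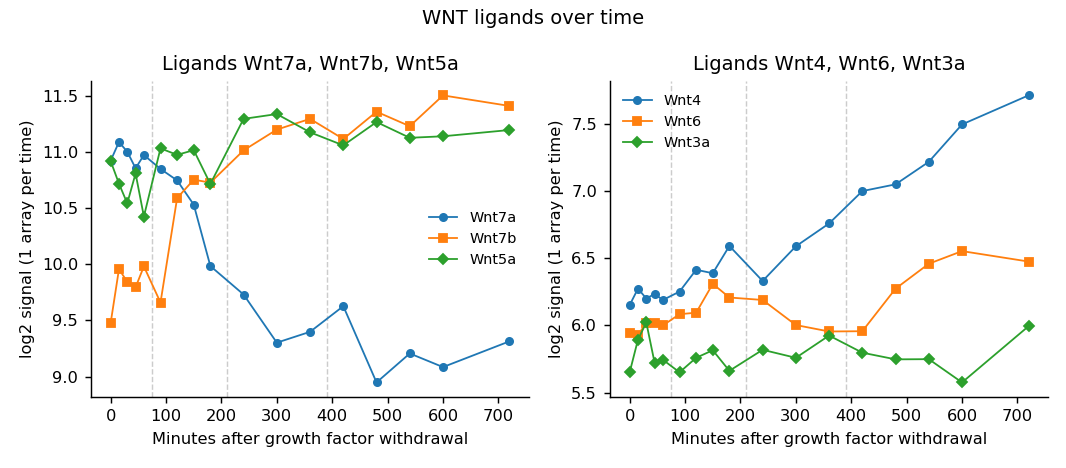
WNT ligand signals by time, with log2 signal on the vertical axis and minutes after growth factor withdrawal on the horizontal axis. Each point is 1 array, there are no error bars because no time was repeated, and dashed lines separate the 4 windows. Wnt7a falls from 10.92 at 0 min to 9.31 at 720 min while Wnt7b goes from 9.48 to 11.41, and heights are not comparable between genes because each has its own probe.

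Wnt4 rose late and was still climbing at the last time. Wnt4 is a ligand that can act with or without beta-catenin, depending on the cell. Its early arrays lay between 6.15 and 6.27, a narrow band below the median probe. The late arrays read 7.00, 7.05, 7.22, 7.50 and 7.71 from 420 to 720 min, each above the one before. The late change was 1.08 (SE 0.10, adjusted p = 8.87e-10), and the curve's midpoint was at 450 min, against 150 min for Wnt7b. In the third window the change was 0.35 (adjusted p = 0.0432), and leaving out 1 array ended this call in 8 of 17 cases, as did the other windows (0.22).

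Wnt5a, the main ligand of signalling without beta-catenin, was bright throughout. It was at 10.92, 10.72, 10.54, 10.81 and 10.43 in the early window and at 11.29, 11.34 and 11.17 in the third. The late arrays read 11.06, 11.27, 11.13, 11.14 and 11.20, again all above the early ones. The third window change was 0.59 (SE 0.11, adjusted p = 2.93e-04) and the late change 0.47 (SE 0.10, adjusted p = 3.08e-04). With the other windows the third window change of Wnt5a was 0.26 and did not pass. Measured from the curve's own fitted value at 0 min, the largest departure of Wnt5a was 0.29. That departure turned to -0.33 without the 90 min array and to -0.26 without the 480 min array. The early arrays of Wnt5a went from 10.92 at 0 min to 10.43 at 60 min. Wnt6, a dim probe, had a late change of 0.36 (SE 0.08, adjusted p = 0.0011), with 5.96, 6.27, 6.46, 6.55 and 6.48 late against 5.95, 5.93, 6.02, 6.02 and 6.00 early. Its 420 min array lay within the early range and the other 4 late arrays above it.

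The other 14 ligands, all dim, did not pass in any comparison. Their late changes lay between -0.10 and 0.07, and the widest limits of their 95% intervals were -0.29 and 0.25. Wnt3a, which the mouse embryo needs to form a hippocampus, had a lowest value of 5.58, a median of 5.76 and a highest of 6.02 over the 17 arrays, with a late change of -0.03 (95% interval -0.18 to 0.12).

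The Frizzled receptors changed just as unevenly. Of 13 receptors, counting Lrp5, Ror1 and Ror2, 2 were higher and 3 lower late, where 14.8% of all features were higher and 13.9% lower. Those called were Fzd2 and Fzd7 upward and Fzd1, Fzd10 and Fzd4 downward. Fzd10 read 9.54, 9.31, 9.16, 9.61 and 9.28 early, 9.13, 9.04, 8.78 and 8.23 from 90 to 180 min, 7.91, 7.83 and 7.87 in the third window and 8.05, 7.94, 8.15, 8.02 and 8.24 late. Each array from 90 min on lay below every early one. The fall was -0.59 in the second window (SE 0.13, adjusted p = 0.00447), -1.51 in the third (SE 0.14, adjusted p = 3.32e-09) and -1.30 late (SE 0.13, adjusted p = 8.48e-10). Without the 180 min array the second window change was -0.40 and no longer passed, nor did it with the other windows (-0.26).

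Fzd1 fell later. Its early arrays read 8.67, 8.61, 8.51, 8.53 and 8.76, those from 90 to 180 min 8.48, 8.37, 7.93 and 8.04, and the third window 8.07, 7.49 and 7.03. The late arrays, at 7.56, 7.79, 7.56, 7.26 and 7.40, were all below the early ones, and the late change was -1.10 (SE 0.14, adjusted p = 9.63e-08), a 2.15-fold lower signal. Fzd4, a receptor that also binds the non-WNT ligand Norrin, changed less, from 6.92 ± 0.07 to 6.62 ± 0.12 (-0.30, SE 0.08, adjusted p = 0.00571). Early and late arrays of Fzd4 did not overlap.

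Fzd5 rose and returned. It was at 9.06, 8.37, 8.75, 9.39 and 9.36 at 0, 15, 30, 45 and 60 min, and at 10.13, 10.34, 10.42 and 9.97 at 90, 120, 150 and 180 min. It then read 9.54, 9.27 and 8.70 at 240, 300 and 360 min and 8.72, 8.88, 8.87, 8.86 and 8.95 late. The 4 arrays of the second window were above all others in the series. The second window change was 1.23 (SE 0.16, adjusted p = 3.84e-06), a 2.35-fold higher signal, and the late mean did not pass against the early one (-0.13, adjusted p = 0.631). A direct comparison of the late with the second window, added after these values were seen, gave -1.36 (SE 0.16, adjusted p = 1.38e-07). In that comparison 6 members were higher and 6 lower, against 11.2% and 10.3% of all features. The size of the fitted departure of Fzd5, 1.45, rests on the 0 min array, and it was 3.66 when that array was left out and the curve was extended back to 0 min.

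**Figure D3:**
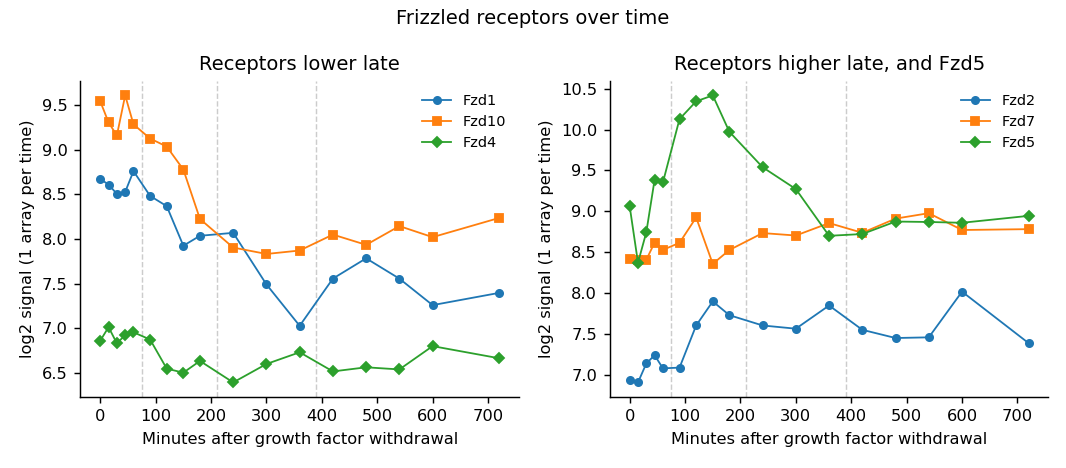
Frizzled receptor signals by time, with log2 signal on the vertical axis and minutes after growth factor withdrawal on the horizontal axis. Each point is 1 array, and dashed lines separate the 4 windows. Fzd10 and Fzd1 step down between 120 and 360 min, Fzd2 steps up from 7.09 at 90 min to 7.90 at 150 min, and Fzd5 peaks at 10.42 at 150 min.

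Fzd2 rose from 7.07 ± 0.14 early to 7.58 ± 0.35 in the second window (n = 4 arrays) and 7.58 ± 0.25 late. Its 90 min array, at 7.09, was within the early range, and each array from 120 min on was above it. The late change was 0.51 (SE 0.12, adjusted p = 0.00142), while the second window change of 0.52 (adjusted p = 0.0115) was lost without the 150 min or the 180 min array, and with the other windows (0.20). Fzd7 was higher late by 0.36 (SE 0.10, adjusted p = 0.00593), with late arrays at 8.74, 8.91, 8.98, 8.77 and 8.78 and a highest early array of 8.62. Ror1, a receptor for Wnt5a whose probe was dim, rose in the third window, to 6.75, 6.69 and 6.51 against 6.09, 6.01, 6.29, 6.10 and 6.03 early (0.55, SE 0.08, adjusted p = 4.54e-06). With the other windows that change was 0.25 and did not pass. Its late arrays, 6.18, 6.19, 6.15, 6.13 and 6.15, overlapped with the early ones.

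The coreceptor Lrp5, Fzd3, a receptor needed for axon growth in the mouse, and Fzd9 passed no comparison. Lrp5 lay between 6.20 and 6.72 with a late change of -0.08 (95% interval -0.26 to 0.10). The 95% interval of the late change was -0.13 to 0.28 for Fzd3, whose values spanned 8.93 to 9.43, and -0.09 to 0.24 for Fzd9.

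Secreted modulators bind ligands or receptors outside the cell. Sfrp and Wif1 proteins bind WNT ligands, Dkk1, Dkk2 and Dkk4 act on the coreceptors, and Rspo proteins strengthen the signal by removing the ubiquitin ligases Rnf43 and Znrf3 from the surface. Of the 14 measured, 11 were dim. Late, 0 were higher and 3 lower, where 14.8% of all features were higher and 13.9% lower. Sfrp2 read 6.85, 7.06, 7.37, 7.01 and 7.11 early and 6.69, 6.60, 6.42, 6.23 and 6.52 late, with no overlap. Its late change was -0.59 (SE 0.10, adjusted p = 1.72e-05). In the second window it was at 7.17, 7.11, 7.06 and 7.24, within or close to the early range, and the third window change of -0.36 (adjusted p = 0.0264) was lost without the 30, 300 or 360 min array.

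The 2 other modulators called late were dim. Rspo3 changed by -0.27 (SE 0.07, adjusted p = 0.00284), from 5.95 ± 0.12 to 5.69 ± 0.12. Dkk3, a divergent member that is not a plain inhibitor of the coreceptors, changed by -0.16 (adjusted p = 0.0492), and leaving out 1 array ended this call in 13 of 17 cases. Wif1 was not dim and varied between 6.98 and 7.81 without passing a test. The 95% interval of the late change was -0.17 to 0.16 for Sfrp1 and -0.10 to 0.19 for the dim Dkk1, and neither passed.

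The textbook feedback genes did not move together. Axin2, a scaffold of the destruction complex and a widely used readout of canonical signalling, fell and came back. It read 9.07, 9.00, 8.52, 8.26 and 8.23 at 0, 15, 30, 45 and 60 min, so its fall lay partly within the early window. At 90 to 180 min it was 8.02, 7.79, 7.55 and 7.43, and at 240, 300 and 360 min 7.81, 7.25 and 8.10. The late arrays read 8.58, 8.22, 8.78, 8.92 and 9.10. All arrays of the second window and of the third window were below all early ones, and the late arrays spanned nearly the same range as the early ones. The change was -0.92 in the second window (SE 0.18, adjusted p = 8.23e-04) and -0.90 in the third (SE 0.19, adjusted p = 9.20e-04). With the other windows the second window change of Axin2 was -0.70 and did not pass. Late against early it was 0.11 (adjusted p = 0.734). The late window was higher than the second by 1.03 (SE 0.18, adjusted p = 4.66e-05) and higher than the third by 1.00 (SE 0.19, adjusted p = 0.00128), in comparisons added after the values were seen. From the lone array at 0 min to the lowest at 300 min the signal went from 9.07 to 7.25, and the window differences understate that span.

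Nkd1, which binds Dishevelled and dampens the pathway, was higher in all 3 later windows. It was at 7.53, 7.35, 7.60, 7.31 and 7.29 early, 7.74, 7.97, 8.37 and 8.52 from 90 to 180 min, 8.59, 8.67 and 8.90 in the third window and 8.79, 8.83, 8.92, 9.01 and 9.24 late. No array from 90 min on overlapped with the early ones. Within the first 60 min Nkd1 did not rise while Axin2 was already falling, and after 300 min the signals of both genes went up. For Nkd1 the late window was not called against the third (0.24, SE 0.14, adjusted p = 0.370), in the same added comparison that called Axin2 higher. The change of Nkd1 was 0.73 in the second window (SE 0.13, adjusted p = 2.37e-04), 1.30 in the third (SE 0.14, adjusted p = 2.72e-08) and 1.54 late (SE 0.12, adjusted p = 1.32e-11), a 2.91-fold higher signal. With the other windows the second window change of Nkd1 was 0.22 and did not pass. Its paralogue Nkd2, a dim probe, went the other way, from 6.46 ± 0.12 to 6.09 ± 0.14 (-0.38, SE 0.08, adjusted p = 4.02e-04). The targets Lef1 and Rnf43 were dim. Their late changes were 0.06 (95% interval -0.08 to 0.20) and -0.02 (95% interval -0.25 to 0.21), and neither passed a test.

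**Figure D4:**
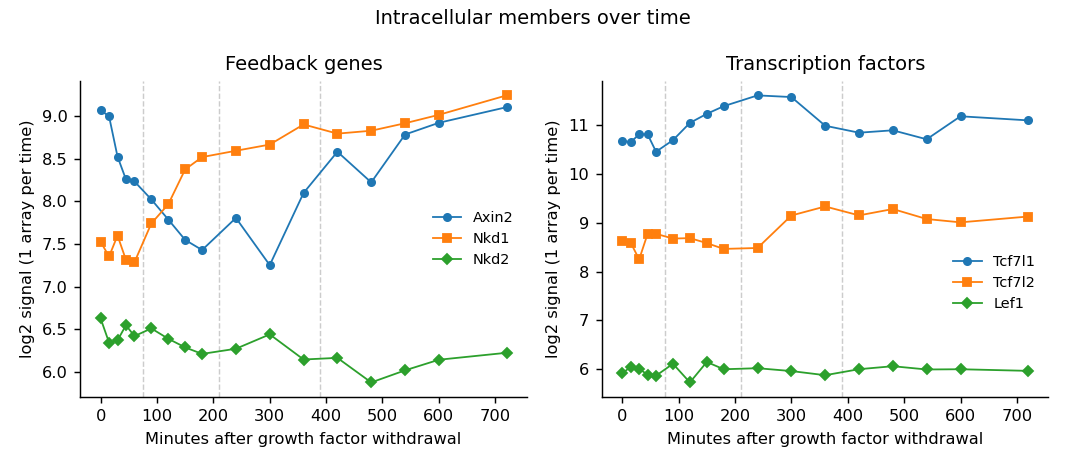
Feedback genes and transcription factors of the pathway by time, with log2 signal on the vertical axis and minutes after growth factor withdrawal on the horizontal axis. Each point is 1 array, and dashed lines separate the 4 windows. Axin2 drops to 7.25 at 300 min and is at 9.10 at 720 min, Nkd1 climbs from 7.29 at 60 min to 9.24 at 720 min, and Tcf7l1 peaks at 11.62 at 240 min.

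The promoters of the feedback genes Axin2 and Nkd1, called in opposite directions in the second and the third window, are shown beside those of Fzd7 and Tcf7l2. Fzd7 and Tcf7l2 are the members called higher late that have a window with the binding motif of Tcf7 and Lef1 factors. The sequences are RefSeq windows of build GRCm38.p6, from 250 bases before to 50 after an annotated start, all on the plus strand. Capitals mark a match to CTTTGAA or CTTTGAT or CTTTGTA or CTTTGTT, or to their reverse complements, and overlapping matches were counted. The windows are Axin2 at chr11:108920099-108920398, Nkd1 at chr8:88527383-88527682, Fzd7 at chr1:59481897-59482196 and Tcf7l2 at chr19:55895071-55895370, the last at the later of 2 listed starts of that gene. The window at the earlier listed start of Tcf7l2, chr19:55741560-55741859, is not shown and held no match. RefSeq begins the Axin2 gene at 108917828 and the Nkd1 gene at 88521342, upstream of the windows shown, so these are internal starts and not the most upstream ones.
Axin2: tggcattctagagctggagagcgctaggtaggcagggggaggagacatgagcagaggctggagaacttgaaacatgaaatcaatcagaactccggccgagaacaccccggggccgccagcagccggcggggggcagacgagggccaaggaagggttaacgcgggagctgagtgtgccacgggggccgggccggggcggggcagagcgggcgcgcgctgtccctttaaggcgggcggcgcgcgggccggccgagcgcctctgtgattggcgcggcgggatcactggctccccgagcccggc
Nkd1: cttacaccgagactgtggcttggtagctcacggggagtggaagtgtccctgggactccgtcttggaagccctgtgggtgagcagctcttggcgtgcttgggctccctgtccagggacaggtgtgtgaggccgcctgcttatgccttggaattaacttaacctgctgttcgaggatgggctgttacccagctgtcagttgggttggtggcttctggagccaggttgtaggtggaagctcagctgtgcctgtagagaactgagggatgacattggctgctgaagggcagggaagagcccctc
Fzd7: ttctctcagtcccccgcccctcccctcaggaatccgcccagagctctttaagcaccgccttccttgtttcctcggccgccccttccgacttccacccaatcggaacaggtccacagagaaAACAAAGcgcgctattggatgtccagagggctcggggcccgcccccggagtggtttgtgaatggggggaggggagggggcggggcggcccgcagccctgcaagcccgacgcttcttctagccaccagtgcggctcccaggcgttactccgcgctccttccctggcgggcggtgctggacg
Tcf7l2: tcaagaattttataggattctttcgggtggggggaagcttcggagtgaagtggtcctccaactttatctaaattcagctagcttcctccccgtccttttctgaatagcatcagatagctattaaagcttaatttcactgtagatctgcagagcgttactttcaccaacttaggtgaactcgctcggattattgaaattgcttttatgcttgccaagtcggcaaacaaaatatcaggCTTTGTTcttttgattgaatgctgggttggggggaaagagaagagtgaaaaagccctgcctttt

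Of the 60 members, 41 had such a window, 50 windows in all, and 7 of these windows held a match (14.0%). Among all 32851 windows 16.9% did. Counted from the annotated start, the match in Fzd7 begins at -130 and that in Tcf7l2 at -14. These letters were not in the windows shown for Axin2 and Nkd1, and the regions at their most upstream starts were not searched. A match describes the sequence and is not evidence of binding.

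The factors that carry the signal into the nucleus differed in timing. Tcf7l1, which mostly represses targets until beta-catenin relieves it, read 10.69, 10.66, 10.82, 10.82 and 10.46 early, 10.70, 11.05, 11.24 and 11.40 from 90 to 180 min and 11.62, 11.58 and 10.99 in the third window. In the third window the change was 0.71 (SE 0.15, adjusted p = 5.72e-04), with no overlap. The late arrays read 10.85, 10.90, 10.72, 11.19 and 11.10, and the late change of 0.26 did not pass (adjusted p = 0.134). Without the 0 min array the largest fitted departure of Tcf7l1 was -0.53, because the curve was then extended back to 0 min. Tcf7l2 stayed between 8.25 and 8.77 through 240 min and was at 9.15 at 300 min. It read 9.15, 9.28, 9.08, 9.01 and 9.13 late, all above the early arrays, and changed by 0.53 (SE 0.12, adjusted p = 0.00117).

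Beta-catenin itself was bright and steady. The Ctnnb1 signal lay between 12.95 and 13.29 over 17 arrays, with a late change of 0.13 (95% interval -0.01 to 0.28, adjusted p = 0.174). Transcript level says nothing of its protein, which is set by degradation. Apc spanned 7.14 to 7.81 and its late change was -0.13 (95% interval -0.34 to 0.07). Porcn, the enzyme that attaches the lipid WNT ligands need for secretion, rose from 8.30 ± 0.13 to 8.76 ± 0.28 (0.46, SE 0.11, adjusted p = 0.00127), with late arrays at 8.82, 8.37, 8.79, 8.66 and 9.15. Its 480 min array overlapped with the early range. Dvl1, a relay below Frizzled, fell from 9.07 ± 0.18 to 8.69 ± 0.17 (-0.38, SE 0.11, adjusted p = 0.0101), with overlap, and its time course call was lost when the 0, 420, 480 or 540 min array was left out.

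**Figure D5:**
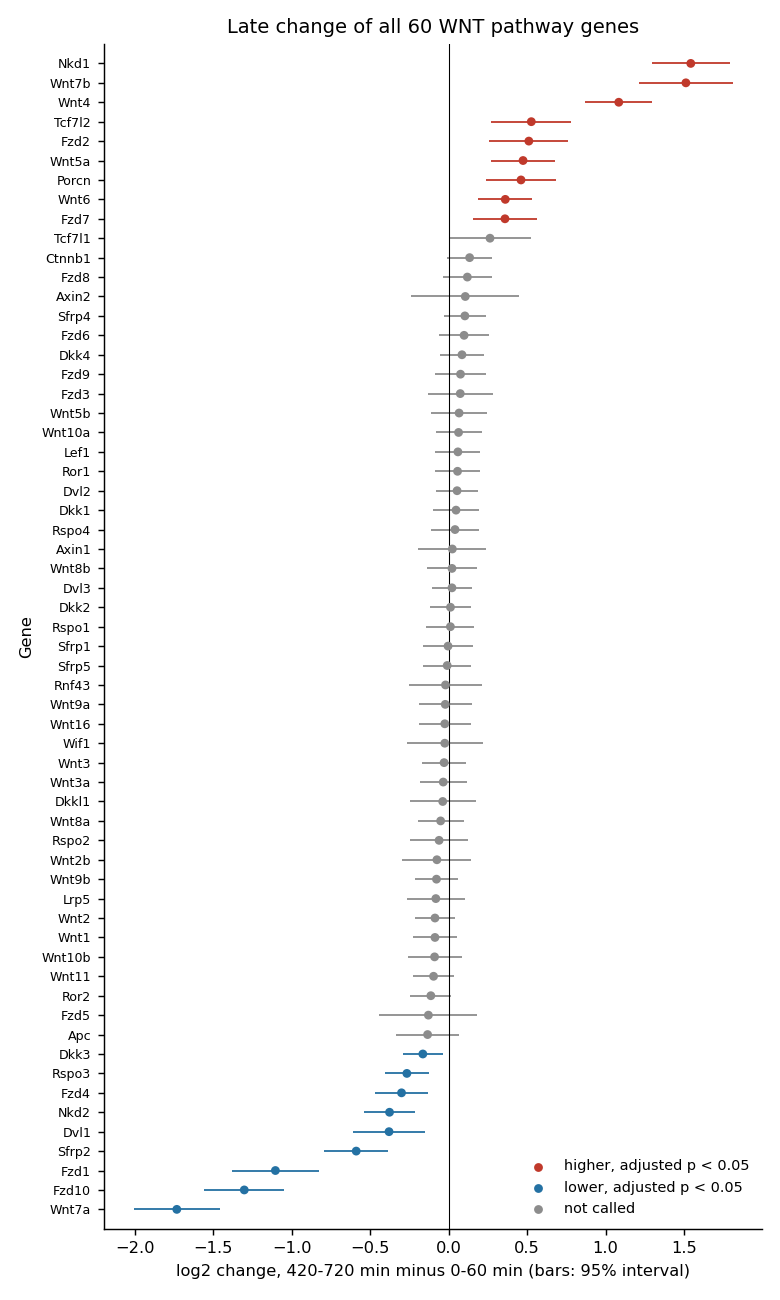
Late change of each of the 60 members. The horizontal axis is the log2 change of the 420 to 720 min mean minus the 0 to 60 min mean, points are estimates, bars are 95% intervals from the limma fit, and colour marks the call at an adjusted p under 0.05. The 9 members called higher reach 1.54 (Nkd1), the 9 called lower reach -1.73 (Wnt7a), and 42 members were not called.

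Across the 4 tests, 22 members (36.7%) were called at least once and 38 never, against 36.7% of all features called at least once. Of the 21 with a time course call, 16 were sustained, meaning that the curve at 720 min was still beyond the midpoint of its largest departure, and 5 were transient, Axin2, Fzd5, Tcf7l1, Dvl1 and Ror1. Among these, Dvl1 was called lower late, and its curve stood at -0.26 at 720 min against a largest departure of -0.54, close to that midpoint. Midpoints of the fitted curves were 90 min for Fzd2, 150 min for Wnt7b and Fzd10, 180 min for Nkd1 and Fzd1, 210 min for Wnt7a, 285 min for Tcf7l2, 450 min for Wnt4 and 495 min for Porcn. The 38 uncalled members comprised 29 dim and 9 other probes. Over the 17 arrays the 29 dim ones each spanned between 0.24 and 0.87.

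Other genes of the pathway, from lists that are not members, were read in the same fits. Their late counts stand beside 14.8% higher and 13.9% lower among all features, dim ones included. Of 20 secretion, surface and extracellular regulators, 6 were higher and 2 lower late. Apcdd1, a membrane inhibitor of the pathway, rose by 2.23 (SE 0.17, adjusted p = 8.67e-12), Wls, the carrier that brings WNT ligands to the surface, by 1.08, and Kremen1, a Dkk receptor, by 0.87. Draxin, an axon guidance protein that can also antagonise WNT signalling, was the largest at 3.55. Of 17 destruction complex and cytoplasmic regulators 2 were higher and 2 lower, with Cxxc5, an inhibitor that binds Dishevelled, at -0.88 and Tnks2, which marks Axin for degradation, at 0.54.

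Of 19 nuclear cofactors, 17 of them not dim, 8 were higher and 3 lower late, against 14.8% and 13.9% of all features. Those called included the repressor Hbp1 (1.94), the corepressor subunit gene Tbl1x (0.85), the corepressor gene Ctbp2 (-0.71) and the histone demethylase gene Kdm6a (0.61). Of 14 planar polarity and noncanonical genes, 12 of them not dim, 6 were higher and 0 lower, with Celsr1, a polarity cadherin, at 0.98 and Celsr3 at 0.99. Shares among features that are not dim are not given here, so the counts of these lists are not read as results about them. Of 18 genes known elsewhere as WNT targets, 4 were higher and 7 lower. The cyclin genes Ccnd2 (-2.38) and Ccnd1 (-2.11), the adhesion receptor gene Cd44 (-1.26) and the vascular growth factor gene Vegfa (-1.08) had the largest changes among those called, all lower.

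Some cell type markers also changed in the late window, where 14.8% of all features were higher and 13.9% lower. Of 8 oligodendrocyte lineage markers 4 were higher late and 0 lower, while Sox10 and Mog were dim. The log2 of the summed signal of these 8 lay between 14.59 and 14.82 early and between 14.66 and 14.98 late, with overlap. The time course test called 4 of the 8 upward and 2 downward (Olig1 and Olig2), against 16.6% and 16.0% of all features. Of 7 endothelial and mural markers 3 were lower and 0 higher, with 10.17 to 10.45 early and 9.39 to 10.11 late, while Pecam1, Cldn5, Kdr and Pdgfrb were dim. Of 10 precursor markers 2 were higher and 3 lower (15.17 to 15.27 early, 14.91 to 15.23 late). Of 7 neuronal markers 1 was higher and 0 lower (12.69 to 12.86 early, 12.81 to 13.20 late). Of 5 microglial markers, all dim, 0 were called. These summed signals follow mainly the brightest probes of each list and can hide changes of the others. Means over all arrays were 14.60 for Olig1, 12.77 for the neuronal marker Map2 and 9.32 for the mural marker Acta2. Cnp, an oligodendrocyte lineage marker with a mean of 8.67, rose by 2.25 late. The part of any of these markers' cell types in the changes of WNT genes was not tested.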

How the data were processed

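The authors deposited 1 table of log2 signals for 17 Illumina bead arrays. Per the labels' protocols, total RNA was amplified and biotin labelled with Illumina's TotalPrep kit. No source used here names the scanner software, background correction or normalization. The values, from 5.14 to 15.47, are nearly equally distributed on every array (medians 6.40 to 6.42), and the lowest correlation between arrays was 0.972. Precision is limited by the number of arrays, and each time has 1.

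Of 19949 probes, 18351 had 1 gene by the platform annotation, with symbols updated through Entrez IDs (16482) or accessions (956) and otherwise kept (913). A gene with several probes took its brightest by mean, and the 1598 unnamed probes stayed as features, 19854 in all. No dim probe was left out. R 4.3.3 and limma 3.58.1 gave contrasts between window means and a moderated F test of a curve in time (natural cubic spline, 4 df, fitted on square-root minutes), with eBayes trend and Benjamini-Hochberg adjustment over all features. A time course call is upward or downward by the largest departure of the fitted curve from its value at 0 min. The method was tested on simulated data.

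Members and lists were chosen with earlier results of these data known. Members named with values were the 8 largest late changes in each direction, the largest called in the second window, the largest transient ones and a fixed set of pathway genes. Fzd7, Ror1 and Wif1 were added after their values were seen, as were the comparisons of the late with the second and the third window. Other lists name up to 4 called genes with the largest late change. Promoter sequences came from RefSeq. Alternatives were quantile normalization, median centring, leaving out dim probes, averaging a gene's probes, other eBayes options, array weights, other windows, other splines and leaving out each array.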

Additional observations from a re-analysis of the deposited data

Results flagged for a closer look

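Of 90 sets of 4 or 5 arrays (the early, second and late windows of the members named by rule), 3 had an array far from the others by Dixon's criterion at the 95% level, and chance flags about 1 window in 20. Fzd2 was at 8.02 at 600 min, with the nearest late array at 7.56 and the lowest at 7.39. The late change of Fzd2 was 0.40 without that array and still passed. Fzd3 was at 9.12 at 540 min, with the nearest late array at 9.25 and the highest at 9.30. Wnt7b was at 9.66 at 90 min, with the nearest array of the second window at 10.59 and the highest at 10.75. The second window change of Wnt7b was 0.88 without the 90 min array, against 0.62 with it.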

How the results depend on the processing

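Of 59 called member values, 41 kept their call and direction under each of 11 other settings and with each of 17 arrays left out in turn where a value could be had, 16 lost the call under at least 1 of these, and 4 turned direction somewhere. Other windows apply only to the window tests and other splines only to the time course. Averaging a gene's probes could not change a member's signal, because each member had 1 probe. The second window was the least stable. With windows of 0 to 45, 60 to 120, 150 to 240 and 480 to 720 min, where it covers earlier times, it held 1 member higher (against 4) and 0 lower (against 2). Leaving out 1 array gave 2 to 5 higher (2 without 150 or 180 min) and 1 to 5 lower (1 without 180 min, 5 without 90 min). In the same way the late window held 9 to 9 higher and 8 to 9 lower, the third 6 to 8 and 5 to 8, and the time course 10 to 13 upward and 8 to 10 downward. The third window change of Sfrp2 was 0.0293 with the other windows. Leaving out 1 array moved the time course departure of Ror1 between -0.50 (without 0 min) and 0.36, and it was -0.42 without 720 min. Likewise it moved that of Tcf7l1 between -0.53 (without 0 min) and 0.76, and that of Wnt5a between -0.33 (without 90 min) and 0.58, with -0.26 without 480 min. The cause was not tested, except that without 0 min the curve is extended to a time with no array. Leaving out dim probes gives no value for dim members. No paired analysis was possible because each time has 1 array. Dim probes limit what can be read of most ligands.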
